A study of Mus musculus with 16 samples.

Results

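Proteins that a cell secretes or places in its membranes are folded in the endoplasmic reticulum (ER). There, Hsp70 and Hsp90 chaperones hold unfolded chains, lectin chaperones read the sugars on glycoproteins, and the protein disulfide isomerases form and reshuffle disulfide bonds. Chains that fail to fold are recognised, drawn back through the membrane and destroyed by the proteasome, a route called ER-associated degradation (ERAD). Goblet cells of the colon make large amounts of the disulfide-linked mucin Muc2 and are known for an extensive ER.

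The expression of 34 named genes of ER folding and ERAD was examined. They were taken by symbol from a list of genes with known roles in these processes, chosen with earlier results of these data known. All 34 were found among 45513 genes in the count files. They comprised 11 Hsp70 and Hsp90 chaperones and their partners, 3 genes of the lectin cycle, 10 genes of disulfide formation and 10 genes of ERAD.

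The libraries came from the colon of 8 mice homozygous for Atoh1(WT)CreERT2, in which CreERT2 lies downstream of the wild-type Atoh1 coding sequence, and heterozygous for the Cre reporter Rosa26tdTom/+. All mice received tamoxifen, and both populations therefore carried both alleles and the same drug. The dose for this comparison was 1 mg on each of 3 days, per the labels and the methods, and the interval from the last dose to collection is not given separately for this schedule. The methods describe male and female animals on a C57BL/6 background, aged 8 to 16 weeks. From each mouse, live EpCAM+ epithelial cells were sorted from crypt-enriched fractions into cells with the tdTom label (tdTom+) and cells without it (tdTom-), giving 8 libraries of each. The label marks cells in which the Atoh1 locus was active when Cre was induced, and cells that descend from them. The tdTom- population is every epithelial cell without the label, so that it is no single cell type.

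Total counts ran from 16482530 to 24218367 in the tdTom+ libraries and from 18318172 to 45791503 in the tdTom- libraries. Goblet cell markers separated the populations, with all 10 of 10 higher in tdTom+ cells and the mean of Muc2 in tdTom- cells at 4.09% of that in tdTom+ cells. All 10 absorptive cell markers and 9 of 10 enteroendocrine markers were lower in tdTom+ cells, among them Chga, and the enteroendocrine marker not called was Insm1 (log2 fold change -0.47). Marker RNA of enteroendocrine cells, which also secrete, was thus more abundant on the tdTom- side. In bulk RNA, fewer cells of a type and less RNA per cell cannot be told apart. Plasma cells, which also hold much ER, were scarcely represented: the summed level of 12 plasma and B cell markers ran from 126 to 156 CPM (counts per 1000000) in tdTom+ and from 260 to 300.4 CPM in tdTom- cells and was nearly all Sdc1, which epithelial cells also express. Of the 12, 5 never exceeded 3 counts, Jchain averaged 0.0374 CPM in tdTom+ and 0.383 in tdTom- cells, and the sole marker abundant enough to test, Sdc1, was 1.00 lower on the log2 scale in tdTom+ cells.

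Of the 34 genes, 32 were higher in tdTom+ than in tdTom- cells and none was lower (edgeR quasi-likelihood test, Benjamini-Hochberg adjusted p under 0.01 over all 15841 genes tested). Among all tested genes 25.5% were higher and 25.5% were lower by the same rule. No member was lower at an unadjusted p under 0.05, and DESeq2 called 33 higher and 0 lower. The median log2 fold change of the members was 1.26, a 2.39-fold higher level, against a median of 0.00 over all tested genes. The level was more than 2-fold higher in 22 members, where 7.59% of all tested genes passed both criteria. For 29 members the lowest tdTom+ library lay above the highest tdTom- library, a pattern that 15.2% of tested genes showed. In 31 members the tdTom+ library was above the tdTom- library of the same animal in 8 of 8 mice. The share of all tested genes with that pattern was not counted, so this number is a description only.

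**Figure D1:**
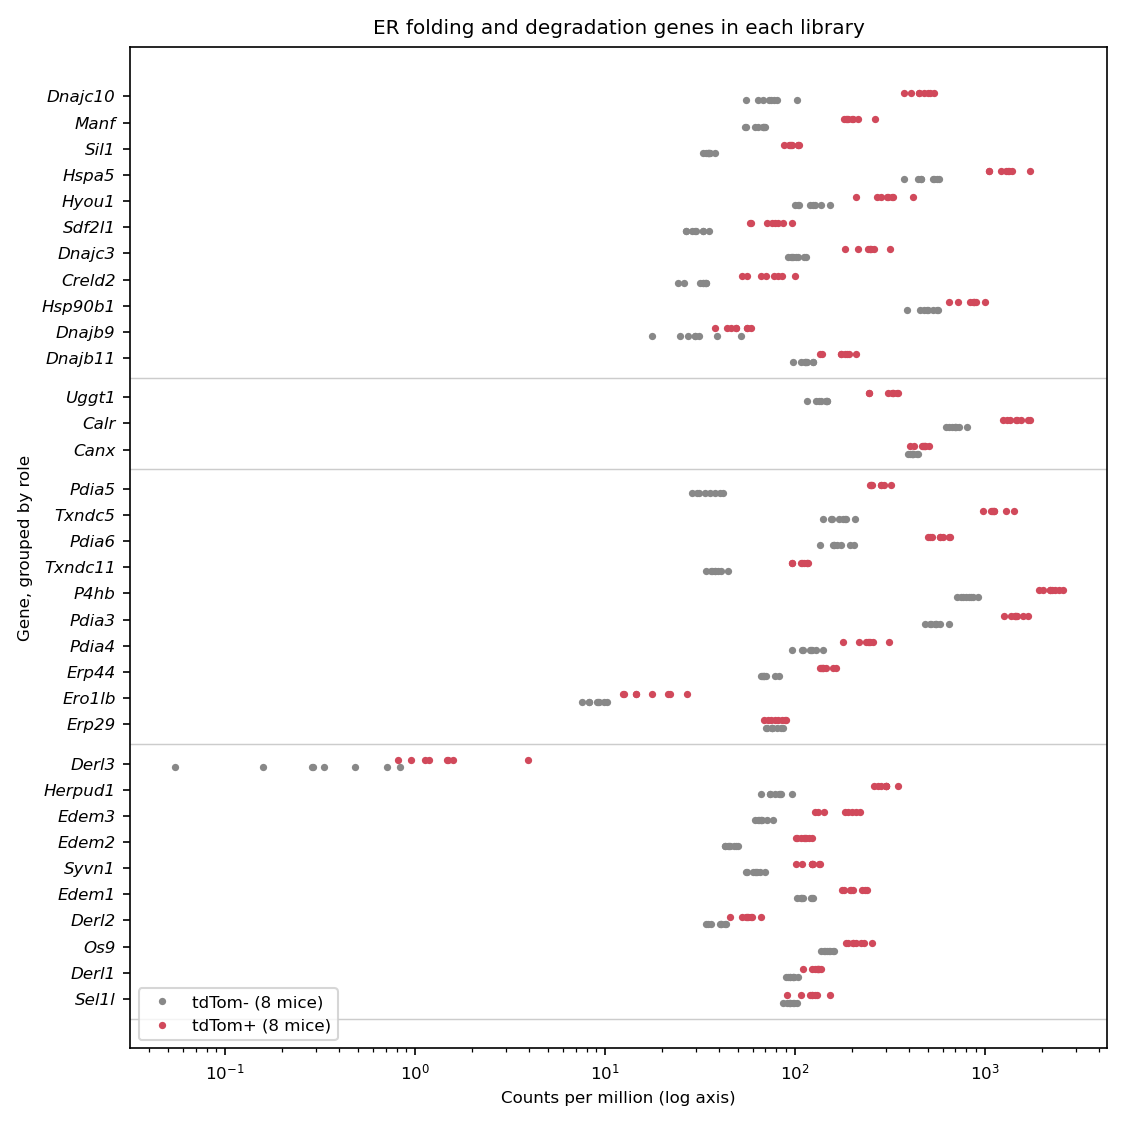
CPM (log axis) of each of the 34 genes in the 8 tdTom+ libraries (red) and the 8 tdTom- libraries (grey), grouped from top to bottom as Hsp70 and Hsp90 chaperones, lectin cycle, disulfide formation and ERAD. Red and grey points do not overlap in 29 genes, and they overlap in Dnajb9, Canx, Erp29, Derl3 and Sel1l.

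CPM values were scaled between libraries by the trimmed mean of M values (TMM). Summed over the 34 genes, tdTom+ libraries held 13821 ± 1155 CPM and tdTom- libraries 5642 ± 326 (SD, 8 mice each), a ratio of 2.45 between the means. Within single animals the ratio ran from 2.20 in mouse 6 to 2.89 in mouse 1. The disulfide genes held the largest part, with 6305 ± 483 CPM in tdTom+ against 2050 ± 139 CPM in tdTom- cells, and they had the largest ratio of the 4 groups, 3.08. The ratio was 2.40 for the Hsp70 and Hsp90 group, 1.92 for ERAD and 1.80 for the lectin cycle.

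The promoters of the members were searched for 3 known elements. The ER stress response element (ERSE) is the known binding sequence of the stress-activated factor ATF6 with NF-Y, and it was searched as CCAAT and CCACG with 9 bases of any kind between them. A related form, ERSE-II, is ATTGG and CCACG with 1 base of any kind between them, and the core of the unfolded protein response element (UPRE), known as a site for XBP1 and ATF6, is TGACGTGG. The windows searched, on both strands, ran from 250 bases before to 50 bases after each start in RefSeq (GRCm38.p6), and all 3 elements hold CCACG or, for the UPRE core, its complement CGTGG. A window was given for 29 of the 34 genes, Ero1lb under its RefSeq symbol Ero1b, and not for Derl1, Erp29, Hyou1, Manf and Sil1. An ERSE lay in the window of 10 of these 29 genes (34.5%). Over all 27025 genes with a window, 37 held an ERSE (0.137%), these 10 included. ERSE-II lay in Herpud1 and, downstream of the start, in Dnajb11, and in 0.0444% of all genes with a window. The UPRE core lay in Txndc5 and Txndc11, and in 0.714% of all genes with a window. The remaining members with a window held no exact match to any of the 3 elements. Copies with other letters, or outside the window, were not searched for. Such a match describes letters, not a bound site. The ERSE is a known element of ER stress genes and the members were picked as known ER genes. Its larger share among them is therefore a description and no independent result.

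The elements of 7 members that recur in the results are shown on the strand of the gene, with the element in capitals and its flanks in lower case. Hspa5 and Hsp90b1 are the main Hsp70 and Hsp90 of the ER, Calr and Canx are the lectin pair that diverged, and Pdia6, Dnajc3 and Herpud1 represent the other roles. Where the capitals begin with CGTGG, the element is on the opposite strand and reads as its complement.
Hspa5: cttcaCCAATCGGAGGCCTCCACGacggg
Hsp90b1, upstream copy: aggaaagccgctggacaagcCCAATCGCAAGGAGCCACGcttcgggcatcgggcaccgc
Hsp90b1, downstream copy: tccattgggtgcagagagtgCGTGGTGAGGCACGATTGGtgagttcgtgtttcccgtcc
Calr: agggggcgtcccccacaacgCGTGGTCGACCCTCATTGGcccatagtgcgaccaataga
Canx: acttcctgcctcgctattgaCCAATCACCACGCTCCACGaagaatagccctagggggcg
Pdia6: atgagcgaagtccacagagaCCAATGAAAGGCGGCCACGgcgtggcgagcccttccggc
Dnajc3: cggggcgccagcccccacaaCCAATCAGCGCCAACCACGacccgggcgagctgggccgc
Herpud1: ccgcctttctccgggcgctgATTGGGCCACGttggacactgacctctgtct

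The Hspa5 stretch is chr2:34772020-34772048 on the plus strand, and its element lies within an exon of a longer GENCODE transcript. The Hsp90b1 stretches are chr10:86705618-86705676 and chr10:86705513-86705571 on the minus strand, upstream of the annotated exons. Calr is shown at chr8:84847055-84847113 and Canx at chr11:50325780-50325838, both on the minus strand. Pdia6 at chr12:17266471-17266529, Dnajc3 at chr14:118937807-118937865 and Herpud1 at chr8:94386357-94386407 are on the plus strand. The other members with an ERSE were Derl3, Ero1lb, Creld2 and Syvn1.

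Members with and without an element covered overlapping ranges of change. The 12 members with ERSE or ERSE-II had a median log2 fold change of 1.16, from 0.16 for Canx to 1.99 for Derl3, and 11 of them were higher. The 17 members with a window but no exact match to ERSE or ERSE-II had a median of 1.28 and all were higher. They included Pdia5 and Dnajc10, among the largest differences of all. Outside the 34 genes, 16 tested genes held one of these elements, of which 7 were higher and 4 lower, with a median of 0.00. Of the 7, 3 are the near-identical copies Xlr3a, Xlr3b and Xlr3c, between which reads may be split. These copies were named after their values were seen. Of 10394 tested genes outside the members with a window and neither element, 2722 were higher and 2903 lower, with a median of -0.02.

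The Hsp70 and Hsp90 group was higher in all 11 of its genes. Hspa5, which encodes BiP, the Hsp70 of the ER and a brake on the stress sensors, stood at 1045, 1311 and 1724 CPM (lowest, median and highest of 8) in tdTom+ cells. In tdTom- cells it stood at 375, 496 and 572 CPM. The populations did not overlap, and the log2 fold change was 1.40 (SE 0.11, adjusted p = 3.70e-10).

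Hsp90b1, the ER Hsp90 also called GRP94, had a smaller fold difference. It reached 647, 869 and 1005 CPM in tdTom+ and 390, 498 and 568 CPM in tdTom- cells, a log2 fold change of 0.76 (SE 0.09, adjusted p = 3.50e-07). All tdTom+ libraries were again above all tdTom- libraries, although 5.38% of the exon bases of Hsp90b1 are shared on the same strand with the predicted genes Gm15344 and Gm25745.

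BiP works with J-domain proteins, which start its cycle, and with exchange factors, which end it. Among the J proteins, Dnajc10, a J protein with disulfide reductase activity also called ERdj5, had the largest difference. It was at 374, 466 and 542 CPM in tdTom+ cells and 55.0, 74.2 and 102 CPM in tdTom- cells, a log2 fold change of 2.65 (SE 0.11, adjusted p = 2.49e-14). Dnajc3, a J protein known as p58IPK, had 184, 248 and 317 CPM against 92.1, 99.7 and 115 CPM, and a log2 fold change of 1.27 (SE 0.09). The change of Dnajc3 was the smaller in 8 of 8 mice, by 1.40 ± 0.24 on the log2 scale (SD; two-sided exact sign-flip permutation test, p = 0.00781, the smallest it can give with 8 mice, adjusted p = 0.00977 over 20 pairs).

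The other J proteins moved less. Dnajb11 (ERdj3) ran at 136, 179 and 210 CPM in tdTom+ and at 97.5, 114 and 125 CPM in tdTom- cells, with a log2 fold change of 0.62 (SE 0.08). Dnajb9 (ERdj4) ran at 37.9, 49.0 and 59.0 CPM against 17.8, 29.7 and 51.9 CPM, with a log2 fold change of 0.66 (SE 0.15, adjusted p = 9.02e-04). Its populations overlapped, with the tdTom- libraries of mice 2 and 3 (51.9 and 38.8 CPM) above the lowest tdTom+ library, and in mouse 2 the tdTom- library was above the tdTom+ library of the same animal. The changes of Dnajb11 and Dnajb9 differed by 0.10 ± 0.36 and from -0.36 to 0.75 between mice (exact sign-flip permutation test, adjusted p = 0.461); without mouse 2 Dnajb9 changed more, by 0.22 (adjusted p = 0.0184).

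Of the exchange factors, Sil1 had a log2 fold change of 1.47 (SE 0.05) and the large Hsp70-like Hyou1 1.33 (SE 0.11). Sil1 was also the steadiest member between tdTom+ libraries, with a coefficient of variation of 6.21%, against 19.4% for Hyou1. The remaining partners were the secreted factor Manf (1.67, SE 0.08), the J-protein cofactor Sdf2l1 (1.32, SE 0.10) and Creld2 (1.24, SE 0.11), and in these 5 genes the populations did not overlap.

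In the lectin cycle, the glucosyltransferase Uggt1 tags incompletely folded glycoproteins, and calreticulin (Calr) and calnexin (Canx) bind the tagged chains. Uggt1 reached 246, 326 and 350 CPM in tdTom+ and 116, 142 and 147 CPM in tdTom- cells, with a log2 fold change of 1.17 (SE 0.08, adjusted p = 7.90e-11). Calr, the soluble lectin, reached 1253, 1472 and 1729 CPM against 622, 693 and 804 CPM, with a log2 fold change of 1.09 (SE 0.08, adjusted p = 1.72e-10). Neither overlapped between populations.

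Canx, the membrane-bound lectin, did not pass the test. It was at 401, 475 and 511 CPM in tdTom+ and 394, 415 and 445 CPM in tdTom- cells, and these ranges overlapped. Its log2 fold change was 0.16 (SE 0.06, adjusted p = 0.0244), with the tdTom+ library higher in 8 of 8 mice. The gap between the lectins held in each animal: the change of Calr exceeded that of Canx by 0.93 ± 0.13, from 0.77 to 1.13 (SD, n = 8; exact sign-flip permutation test, p = 0.00781, adjusted p = 0.00977). Canx did pass with DESeq2 (adjusted p = 0.00320), without mouse 2 (log2 fold change 0.18, adjusted p = 0.00802) and in mice 5 to 8 alone, whose numbers in the labels fall in a series apart from those of mice 1 to 3 (0.23, adjusted p = 0.00689). Both genes hold an ERSE in the stretches shown above.

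The isoenzyme of Uggt1 was low in abundance. Uggt2 was at 1.19, 1.92 and 2.69 CPM in tdTom+ and 1.07, 1.23 and 2.27 CPM in tdTom- cells, and at a log2 fold change of 0.48 it did not pass (adjusted p = 0.0386; 0.00788 with mouse as a block). The change of Uggt1 was larger by 0.70 ± 0.28 (SD; exact sign-flip permutation test, adjusted p = 0.00977).

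**Figure D2:**
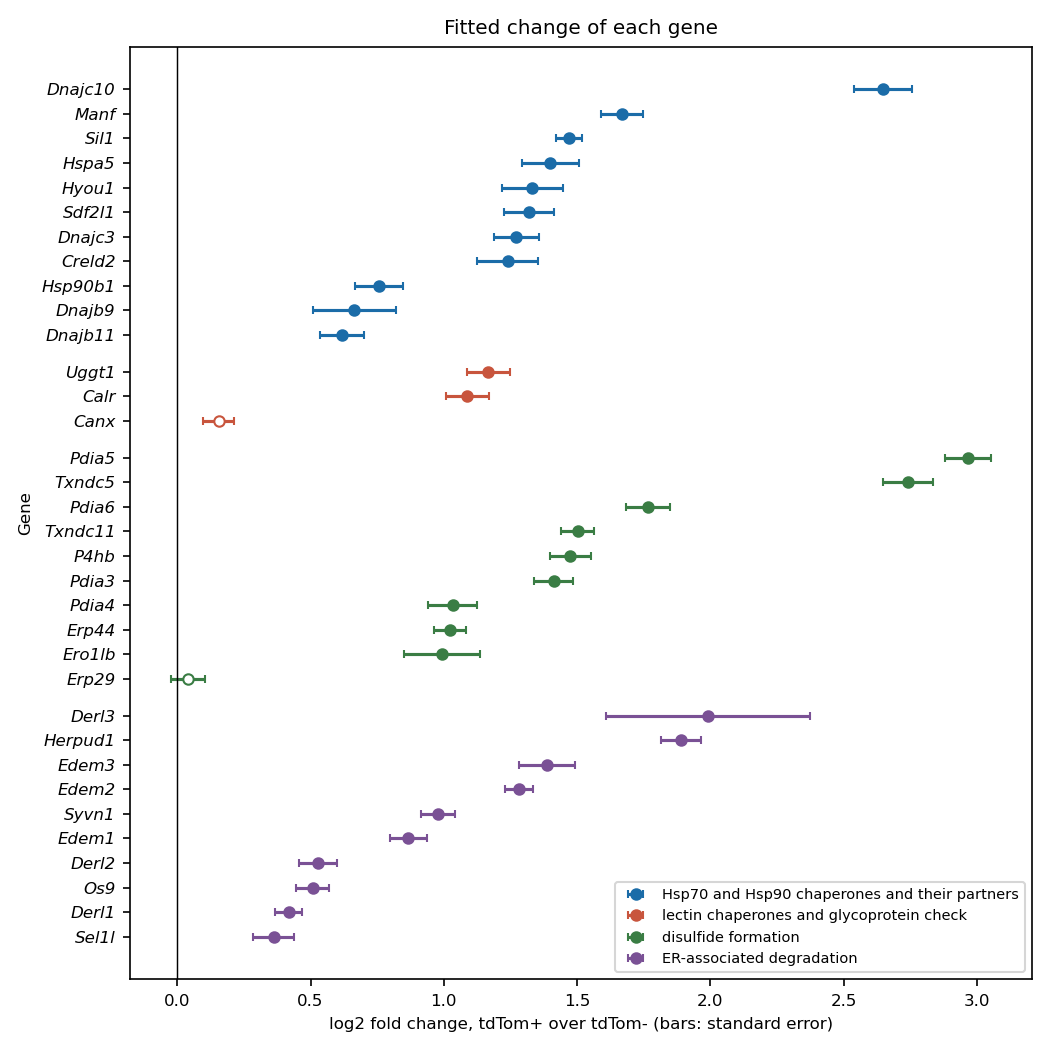
Fitted log2 fold change of each gene, tdTom+ over tdTom-, with its standard error as a bar (8 mice), coloured by role. Open circles are Canx and Erp29, which had adjusted p of 0.0244 and 0.599, and every other gene lies to the right of 0.3.

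Disulfide formation held the largest differences. Pdia5, a disulfide isomerase family member at chr16:35397313-35490873, was at 248, 269 and 321 CPM in tdTom+ and 28.9, 34.7 and 41.8 CPM in tdTom- cells. Its log2 fold change was 2.97 (SE 0.09, adjusted p = 4.20e-16), a 7.82-fold higher level and the largest among the 34. Txndc5 (ERp46), an isomerase with thioredoxin domains, followed at 978, 1111 and 1430 CPM against 141, 175 and 208 CPM. Its log2 fold change was 2.74 (SE 0.09, adjusted p = 1.91e-15). For both genes the lowest tdTom+ library was several times above the highest tdTom- library.

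P4hb, the classical protein disulfide isomerase and the member with the most counts, was at 1928, 2228 and 2565 CPM in tdTom+ and 717, 806 and 919 CPM in tdTom- cells, with a log2 fold change of 1.47 (SE 0.08). Pdia6 was at 501, 582 and 656 CPM against 136, 164 and 204 CPM, with a log2 fold change of 1.77 (SE 0.08). The change of Pdia6 was the larger in every animal, by 0.30 ± 0.10 (SD, n = 8; exact sign-flip permutation test, adjusted p = 0.00977).

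Pdia3 (ERp57), which acts on glycoproteins held by calreticulin and calnexin, was at 1260, 1448 and 1678 CPM in tdTom+ and 483, 549 and 647 CPM in tdTom- cells, a log2 fold change of 1.41 (SE 0.07). Pdia4 (ERp72) was at 179, 245 and 313 CPM against 97.0, 120 and 140 CPM, a log2 fold change of 1.03 (SE 0.09). In each mouse Pdia4 changed less than Pdia3, by 0.39 ± 0.08 on average (SD; exact sign-flip permutation test, adjusted p = 0.00977). Txndc11, a thioredoxin-domain protein of the ER membrane, had a log2 fold change of 1.502 (SE 0.06), and Erp44, which retains Ero1 enzymes in the early secretory route, 1.02 (SE 0.06).

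The oxidases that renew the isomerases differed from each other. Ero1lb was at 12.4, 16.1 and 27.0 CPM in tdTom+ and 7.53, 9.11 and 10.2 CPM in tdTom- cells, a log2 fold change of 0.99 (SE 0.14, adjusted p = 4.47e-06). Ero1l, which encodes the widely expressed form, was at 49.4, 61.1 and 66.0 CPM against 48.8, 55.6 and 64.2 CPM and did not pass (log2 fold change 0.10, adjusted p = 0.227). The change of Ero1lb was larger in 8 of 8 mice, by 0.84 ± 0.31 (SD; exact sign-flip permutation test, adjusted p = 0.00977).

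Erp29, a relative of the isomerases that lacks their active-site cysteines, was the other gene that did not pass. It ran at 68.6, 80.0 and 89.9 CPM in tdTom+ and at 70.8, 76.1 and 86.3 CPM in tdTom- cells. Its log2 fold change was 0.04 (SE 0.06, adjusted p = 0.599), with the tdTom+ library higher in 5 of 8 mice, and -0.01 when libraries were scaled by total count alone.

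Among the ERAD genes all 10 were higher, with the smallest fold differences in Sel1l, Derl1, Os9 and Derl2. The ligase Syvn1 (HRD1) and its partner Sel1l form the membrane core of the route, and derlins lie beside it. Syvn1 was at 101, 123 and 135 CPM in tdTom+ and 55.5, 62.1 and 69.3 CPM in tdTom- cells, with a log2 fold change of 0.98 (SE 0.06, adjusted p = 3.19e-11). Sel1l was at 90.6, 123 and 152 CPM against 86.2, 94.5 and 102 CPM, with a log2 fold change of 0.36 (SE 0.08, adjusted p = 3.83e-04), the smallest that passed. The tdTom+ libraries of Sel1l overlapped the tdTom- libraries, and in mouse 2 the pair was level, with a difference of -0.01. Sel1l changed less than Syvn1 in each animal, by 0.63 ± 0.14 (SD; exact sign-flip permutation test, adjusted p = 0.00977).

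The derlins, which help to draw chains back through the membrane, differed in abundance and in change. Derl1 was at 110, 131 and 137 CPM in tdTom+ and 89.6, 96.1 and 103 CPM in tdTom- cells (log2 fold change 0.42, SE 0.05). Derl2 was at 45.5, 56.5 and 66.3 CPM against 34.1, 40.5 and 43.5 CPM (0.53, SE 0.07). The changes of Derl2 and Derl1 differed by 0.11 ± 0.18, from -0.05 to 0.46 (SD; exact sign-flip permutation test, adjusted p = 0.130).

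Derl3 was a rare transcript, at 0.814, 1.33 and 3.95 CPM in tdTom+ and 0.0543, 0.312 and 0.836 CPM in tdTom- cells. These levels rest on 15 to 66 counts per library in tdTom+ and 1 to 16 counts in tdTom- cells, and the ranges just overlapped. The fitted log2 fold change was 1.99 (SE 0.38, adjusted p = 1.36e-04), the least precise of the 34. Its change exceeded that of Derl1 by 1.41 ± 0.76 (SD; exact sign-flip permutation test, adjusted p = 0.00977) and that of Derl2 by 1.30 ± 0.71 (adjusted p = 0.0184, larger in 7 of 8 mice).

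Herpud1, a stress-induced membrane protein that assembles the HRD1 complex, had the largest change of the well-expressed ERAD genes. It was at 260, 300 and 348 CPM in tdTom+ and 66.3, 80.5 and 96.3 CPM in tdTom- cells, a log2 fold change of 1.89 (SE 0.07, adjusted p = 1.38e-14). Its relative Herpud2 was at 35.01, 36.8 and 40.1 CPM against 25.7, 27.4 and 32.5 CPM, a log2 fold change of 0.42 (SE 0.05). The difference between them was 1.47 ± 0.19 and at least 1.27 in any mouse (SD, n = 8; exact sign-flip permutation test, adjusted p = 0.00977).

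Substrates reach the ligase through mannose-trimming proteins and lectins. Of the trimming proteins, Edem3 was at 128, 187 and 221 CPM in tdTom+ and 61.5, 66.3 and 76.7 CPM in tdTom- cells (log2 fold change 1.39, SE 0.11), and Edem2 at 101, 113 and 123 CPM against 42.6, 45.2 and 49.9 CPM (1.28, SE 0.05). Edem1 was at 178, 199 and 240 CPM against 103, 109 and 125 CPM (0.87, SE 0.07). Edem1 changed less than Edem2, by 0.42 ± 0.17, and less than Edem3, by 0.50 ± 0.16, in 8 of 8 mice each (SD; exact sign-flip permutation tests, adjusted p = 0.00977 for both). The difference between Edem2 and Edem3, -0.08 ± 0.29, ran from -0.35 to 0.39 between mice (adjusted p = 0.461).

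The lectin Os9 was at 186, 206 and 254 CPM in tdTom+ and 137, 150 and 160 CPM in tdTom- cells, a log2 fold change of 0.51 (SE 0.06, adjusted p = 5.76e-07). The related lectin Erlec1 was at 66.7, 72.5 and 77.8 CPM against 31.6, 33.8 and 36.8 CPM, a log2 fold change of 1.08 (SE 0.05). Neither overlapped between populations, and Os9 changed less, by 0.58 ± 0.15 (SD, n = 8; exact sign-flip permutation test, adjusted p = 0.00977). In mice 1 to 3 alone, Os9, Sel1l, Derl3, Ero1lb and Dnajb9 did not pass, at adjusted p of 0.0104, 0.117, 0.0265, 0.0161 and 0.112.

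Further pairs set members against relatives outside the group. The change of Hspa5 exceeded that of the cytosolic Hsp70 Hspa8 by 1.55 ± 0.24, and that of Hsp90b1 exceeded the change of the cytosolic Hsp90ab1 by 0.84 ± 0.15 (SD; exact sign-flip permutation tests, adjusted p = 0.00977 for both). Hspa8 was at 787, 1066 and 1173 CPM in tdTom+ and 976, 1146 and 1282 CPM in tdTom- cells, and Hsp90ab1 at 1410, 1514 and 1718 CPM against 1400, 1600 and 2043 CPM. Neither passed the test (adjusted p = 0.123 and 0.328). Sdf2l1 and Creld2 likewise changed more than Sdf2 and Creld1, by 0.82 ± 0.16 and 0.66 ± 0.28 (adjusted p = 0.00977 for both), although Sdf2 and Creld1 were themselves higher in tdTom+ cells, at log2 fold changes of 0.49 and 0.55.

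**Figure D3:**
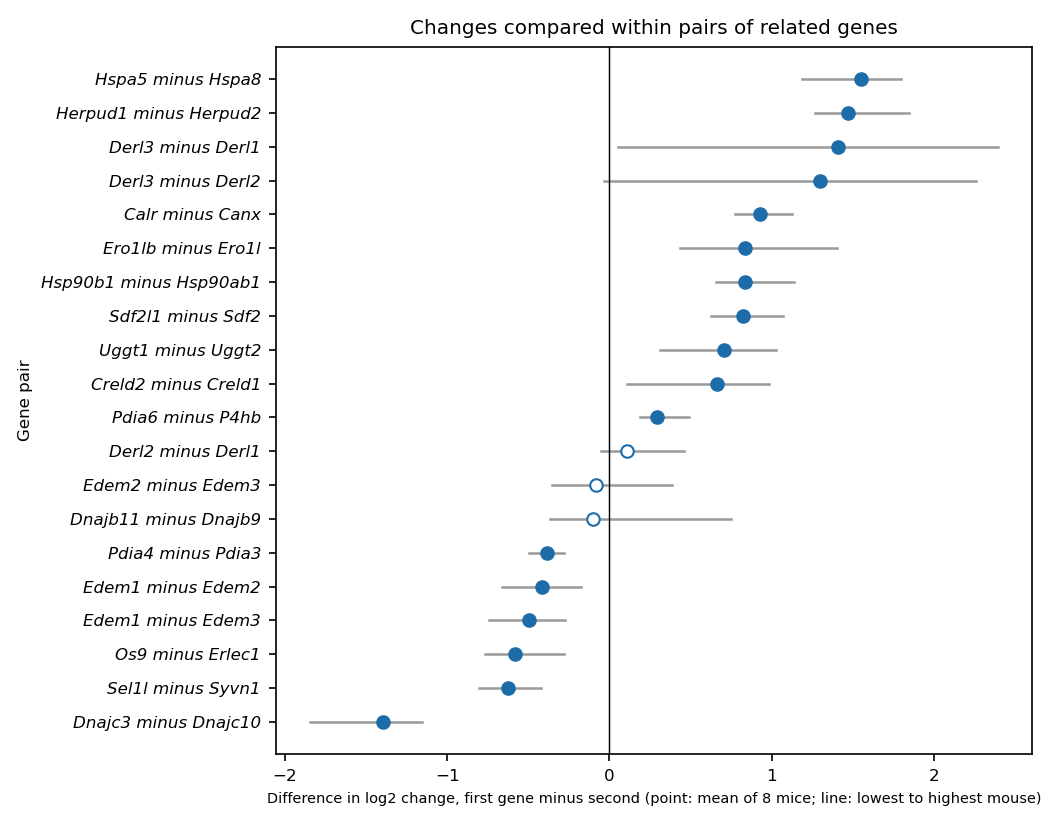
Difference in log2 change (tdTom+ minus tdTom-) within each of 20 pairs of related genes, first gene minus second, with the point at the mean of 8 mice and the line from the lowest to the highest mouse. Filled points are the 17 pairs with an adjusted p under 0.05 and open points are Derl2 with Derl1, Edem2 with Edem3 and Dnajb11 with Dnajb9.

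Levels can be set between genes only per length, as CPM per kilobase of exon, using the union of all annotated exons, which lowers the value of genes with long alternative exons such as Erp29. On that scale P4hb ranked the highest in both populations, at 785 ± 75 in tdTom+ and 283 ± 23 in tdTom- cells (SD, n = 8). In tdTom+ cells Calr (513 ± 60) and Pdia3 (466 ± 40) followed by mean, then Hspa5 (307 ± 51), Txndc5 (268 ± 33) and Hsp90b1 (209 ± 27). In tdTom- cells the order of means was Calr (241 ± 19), Pdia3 (175 ± 16), Hsp90b1 (124 ± 14) and Hspa5 (116 ± 16). Some neighbours in these orders had overlapping SDs between mice. Whether such genes differed within the same libraries was not tested. Pdia5 stood at rank 8 of 34 in tdTom+ and rank 19 in tdTom- cells, Dnajc10 at 12 and 24, and Canx at 10 and 6. Derl3 was the lowest in both, at 1.18 ± 0.75 and 0.30 ± 0.20.

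Many members shared the animal in which they were highest. Of the 34 genes, 16 had their highest tdTom+ library in mouse 7 and 13 had it in mouse 1, whereas over all tested genes mouse 7 was highest in 8.64% and mouse 1 in 13%. These counts are a description, without a test. Those highest in mouse 7 were Hspa5, Hsp90b1, Hyou1, Dnajc3, Dnajb11, Sdf2l1, Manf, Creld2, Canx, Uggt1, Pdia4, Edem1, Derl2, Derl3, Sel1l and Syvn1. Those highest in mouse 1 were chiefly disulfide genes, namely P4hb, Pdia3, Pdia5, Pdia6, Txndc5, Txndc11, Ero1lb, Erp29 and Erp44, with Calr, Sil1, Edem2 and Derl1. Among genes outside the members, mouse 1 was highest in 12 of 32 tested other ER folding genes and 11 of 35 other ERAD genes, and mouse 7 in 6 and 3 of them. Of the 10 goblet cell markers, 3 were highest in mouse 7 and 3 in mouse 2 among tdTom+ libraries, and 4 were lowest in mouse 2. The 3 highest in mouse 7, Clca1, Fcgbp and Retnlb, were also lowest in mouse 2, with Clca1 at 43567 and 8741 CPM. The 3 highest in mouse 2, Tff3, Zg16 and Agr2, went the other way, with Tff3 at 1999 CPM in mouse 7 and 3303 CPM in mouse 2. These markers were named after their values were seen, and their part in the member levels was not tested.

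Mouse 2 had the lowest tdTom+ library in 19 of the 34 genes, against 17.9% of all tested genes. The tdTom- library of the same animal was the lowest in 16 of the 34, against 19.2% of all tested genes, and its summed level, 5196 CPM, was the lowest of the tdTom- libraries. In the tdTom+ group the library of mouse 2 had the highest level of 10 of the 14 dissociation stress genes, against 17.8% of all tested genes. Fos was at 1304 CPM there, where the tdTom+ mean was 804 ± 241 CPM (SD, n = 8). The same library had the highest mitochondrial share of counts among tdTom+ libraries, 6.92% in a range from 2.23%. In the tdTom- group mouse 2 also had the highest mitochondrial share, 9.97% in a range from 3.74%. Their part in the low member levels was not tested. Without mice 2 and 7, 32 members were higher and the median log2 fold change was 1.23.

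**Figure D4:**
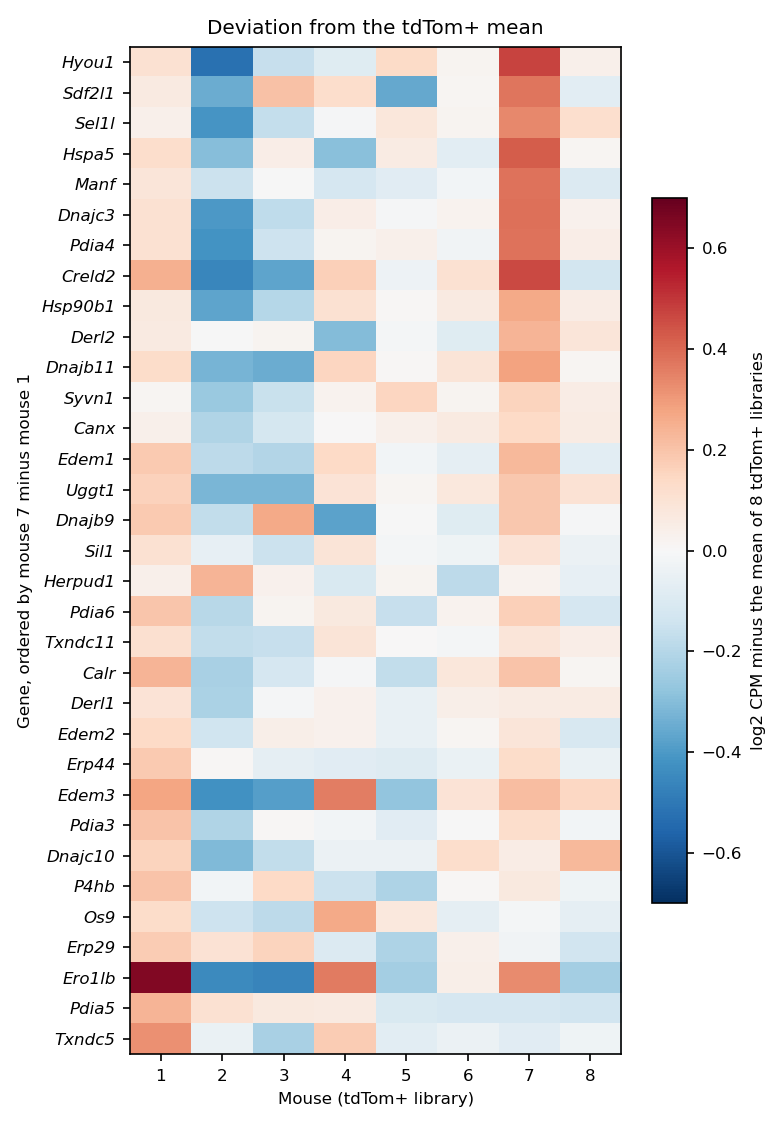
Deviation of each tdTom+ library from the mean of the 8 tdTom+ libraries, in log2 CPM, for 33 of the 34 genes (Derl3, with few counts, is left out), ordered by mouse 7 minus mouse 1. The order itself places the genes relatively high in mouse 7 at the top and those high in mouse 1 at the bottom, and column 2, which it did not use, is blue in most rows.

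Further genes of the same processes were counted from lists drawn up by role, also with earlier results of these data known. Of 36 other ER folding genes 32 were tested, of which 27 were higher and 0 lower by edgeR and by DESeq2. Over all 15841 tested genes edgeR called 25.5% in each direction, and DESeq2 called 4221 higher and 4269 lower. The median log2 fold change of the list was 0.69, and 1 gene, Tmx2, was lower at an unadjusted p under 0.05. The largest were Agr2, an isomerase family member required for Muc2 production that is also a goblet cell marker, at 8156 ± 1233 against 444 ± 149 CPM (log2 fold change 4.20, SE 0.18), the prolyl isomerase Fkbp11 (3.88, SE 0.15) and the sulfhydryl oxidase Qsox1 (3.45, SE 0.09). The smallest that passed were Prdx4 (0.39) and Txndc15 (0.44).

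Of 35 other ERAD genes 19 were higher and 2 lower, against 25.5% of all tested genes in each direction. Their median was 0.24, so they lay nearer to the median of all tested genes than the 10 ERAD members, whose median was 0.92. The largest were the selenoproteins Selenos (1.73, SE 0.07) and Selenok (0.93, SE 0.09) with Erlec1 between them. The ligase March6 (-0.29, SE 0.06) and the ubiquitin-conjugating enzyme Ube2j2 (-0.17, SE 0.04) were lower. In mice 1 to 3 alone, 6 of these genes were higher and 0 lower. There, 2546 of all 16000 tested genes were higher and 2559 lower.

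Of 18 regulators of the unfolded protein response 17 were tested, of which 13 were higher and 0 lower by edgeR and by DESeq2. By edgeR 25.5% of all tested genes were called in each direction, and DESeq2 called 4221 higher and 4269 lower of 15841. The median of the regulators was 0.87, and 1 of them, Ppp1r15a, was lower at an unadjusted p under 0.05. The largest were the transcription factors Bhlha15 (4.18, SE 0.26) and Creb3l4 (3.996, SE 0.12) and the epithelial stress sensor Ern2 (2.87, SE 0.11), and the smallest that passed were Atf6b (0.59) and the protease gene Mbtps1 (0.21). Within the arm that restrains translation, the sensor Eif2ak3 (PERK) and the factor Atf4 were higher, at 1.81 (SE 0.06) and 0.86 (SE 0.08). Ddit3 (CHOP), named like these and Ppp1r15a after its values were seen, had a log2 fold change of -0.36 (adjusted p = 0.0980) and Ppp1r15a one of -0.38 (adjusted p = 0.0672), and with mouse as a block both were lower (adjusted p = 3.14e-04 and 5.88e-04).

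Chaperones outside the ER did not follow the members. Of 26 cytosolic and mitochondrial chaperone genes 1 was higher, the Hsp70 cofactor Bag1 (1.13, SE 0.06), and 8 were lower, with a median of -0.15. Over all tested genes 25.5% were higher and 25.5% lower. The lowest chaperone genes were Hsph1 (-0.67, SE 0.13) and Hspd1 (-0.50, SE 0.09). DESeq2 called 11 of the 26 lower and 1 higher, and the fit with mouse as a block gave the same counts. Of 14 genes known to respond to tissue dissociation 0 were higher and 2 lower by edgeR, Zfp36 and Ier3, while 4 were lower at an unadjusted p under 0.05 and 1 higher, Hspb1 (0.77, adjusted p = 0.0127). DESeq2 called 1 higher and 3 lower, and with mouse as a block 11 were lower and 1 higher. The median log2 fold change of these 14 genes was -0.26. Any part of dissociation stress in the member differences was not tested.

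**Figure D5:**
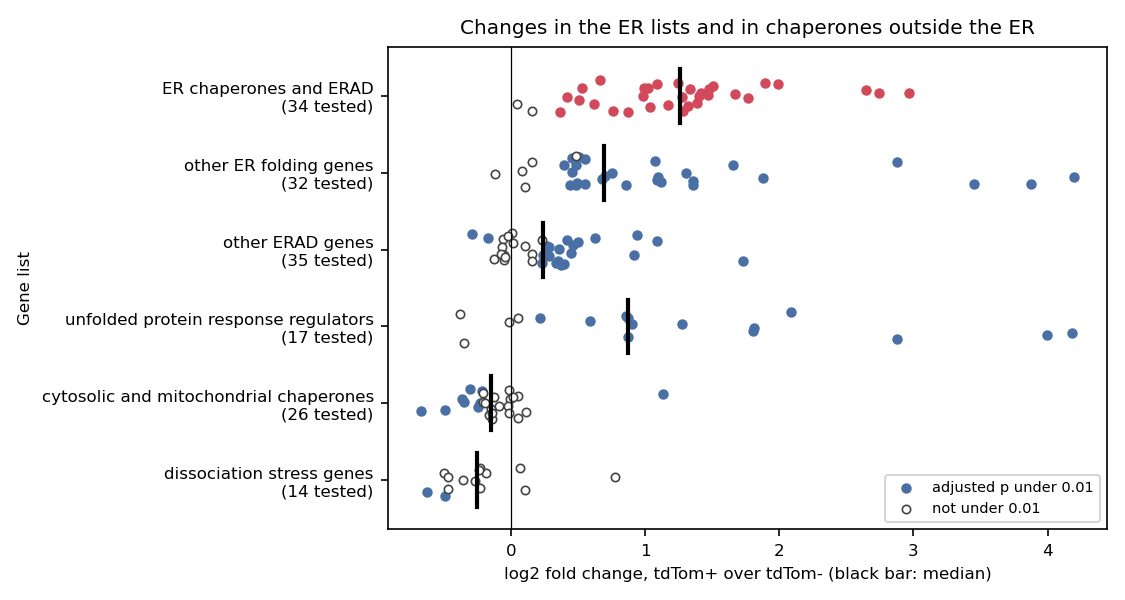
log2 fold change, tdTom+ over tdTom-, of every tested gene in 6 lists, with filled points at an adjusted p under 0.01, open points otherwise, and a black bar at each median. The medians are 1.26 for the 34 members, 0.69, 0.24 and 0.87 for the other ER lists, and -0.15 and -0.26 for cytosolic and mitochondrial chaperones and for dissociation stress genes.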

How the data were processed

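Colon RNA of 16 libraries from 8 mice was sequenced by the authors as single 50-base reads after stranded polyadenylated RNA preparation. Per the labels and file headers, the reads were aligned with TopHat2 2.1.1 to GRCm38.p3, and the deposited values are raw counts per gene from featureCounts 1.5.0-p1, taken over exons on the reverse strand (the submitters' processing notes name Subread 1.5.2). The notes also name DESeq2 1.14.1, which the authors used on such counts. Reads lying in exons of more than 1 gene were left unassigned and primary alignments alone were counted, so near-identical copies may share reads.

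Groups came from the label of sorted population and mice from the number in the titles. Counts were fitted in edgeR 4.0.16 (R 4.3.3) with TMM scaling, filterByExpr and the quasi-likelihood test, without a mouse term, and adjusted by Benjamini-Hochberg over 15841 genes at 0.01. Levels are CPM, and log2 values carry a prior count of 2. Same-numbered libraries came from 1 animal; their deviations from the population means correlated at 0.22 to 0.41 over genes, against a median of -0.04 between animals. Within each population, libraries differed from each other by far more than sampling noise, with a chi-square per gene of at least 11.7. Pair differences were tested by exact sign-flip over 8 mice, with a smallest p of 0.00781. Depth per library, 16482530 to 45791503 counts, puts 3 counts at 0.0655 to 0.182 CPM, and such floors cover counting error only.

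Alternatives were a mouse block, DESeq2 1.42.0, other scalings and filters, and leaving out mice. Named in the text are all members, the 3 largest and 2 lowest genes past the threshold of the other ER, regulator and chaperone lists, and pair partners. The members and lists were chosen with earlier results of these data known. Promoter windows came from RefSeq. Other markers gave, as higher and lower in tdTom+ cells of those tested, 1 and 5 of 9 for tuft cells, 0 and 1 of 2 for other immune cells, 0 and 2 of 3 for stroma, and 0 and 6 of 10 for proliferation.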

Additional observations from a re-analysis of the deposited data

Results flagged for a closer look

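Each of 68 groups of 8 libraries (34 genes in 2 populations) was examined for a library set apart from the rest, by comparing its gap to its nearest neighbour with the range of the group (Dixon's 95% criterion). Such a library stood out in 3 groups, where about 1 in 20, or 3.4 of 68, is what chance gives. Manf was at 8.04 log2 CPM in the tdTom+ library of mouse 7, with the other 7 tdTom+ libraries from 7.503 to 7.74. Derl3 was at 2.01 log2 CPM in the same library, with the others from -0.14 to 0.75, on at most 66 counts. Derl1 was at 6.78 log2 CPM in the tdTom+ library of mouse 2, with the others from 6.95 to 7.10. Leaving out mouse 7 gave a log2 fold change of 1.62 for Manf and 1.89 for Derl3, and leaving out mouse 2 gave 0.45 for Derl1, and all 3 genes stayed higher in tdTom+ cells.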

How the results depend on the processing

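Over 19 alternatives the 34 genes gave 645 refitted log2 fold changes, of which 635 kept the direction and the side of the threshold, 5 lost the call, 4 gained it and 1 changed sign. With mouse as a replicate block, 32 members were higher and 0 lower, the median was 1.24, and 28 and 0 other ER folding genes and 21 and 2 other ERAD genes were higher and lower; the block changed no call of a member. The members higher ranged from 27 (mice 1 to 3 only) to 33, those lower were 0 in each alternative, and the median log2 fold change ranged from 1.202 to 1.28. Leaving out 1 mouse at a time gave 32 to 33 members higher. The sign change was Erp29 scaled by total count, at -0.012. The gains were all Canx, with DESeq2 (0.16), at an adjusted p under 0.05 (0.16), without mouse 2 (0.18) and in mice 5 to 8 (0.23). The losses, all in mice 1 to 3 only, were Dnajb9 (0.46), Ero1lb (0.92), Derl3 (1.86), Sel1l (0.25) and Os9 (0.44). There, 2546 genes were higher and 2559 lower of all tested, against 4032 and 4042, and 6 and 0 other ERAD genes, with fewer samples. The count of other ERAD genes lower was 1 without a filter, and 1 to 2 when 1 mouse was left out (1 without mouse 6 or mouse 8); the cause was not tested. Derl3 was removed by a minimum of 10 counts in every library. Scaling moved the median of all tested genes to -0.05 at most. Of 180 recomputed pair differences 179 kept their call, and Dnajb11 minus Dnajb9 gained one without mouse 2. Leaving out mice 2 and 7 together was chosen after seeing the data. Depth limits mainly Derl3.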
